A study of Mus musculus with 4 samples.

Results

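The genes described here are those whose symbols name a part of the motile axoneme, the microtubule core of a beating cilium. They are all annotated features whose symbol begins with Dnah, Dnai, Dnaic, Cfap or Rsph followed by a digit, and there are 59 of them among 32286 features. The mice were C57BL/6, 14 days old, and nuclei of their frozen hemispheres were sequenced as 4 droplet libraries with 3′ tags. The libraries form 2 groups of 2. The KO group carried Slc17a6-Cre with Ago2 flox/flox, and the WT group carried Slc17a6-Cre with Ago2 wt/wt. The Cre of all 4 libraries is driven from Slc17a6, the gene of the vesicular glutamate transporter VGLUT2, so deletion is directed to neurons that have used that gene. The labels leave unsaid if libraries of the same genotype are separate mice, and p-values therefore measure the spread between libraries, which may be technical. With 2 libraries a group, an exact permutation test cannot give a two-sided p below 0.33, so tests across genes used edgeR.

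Motile cilia beat because dynein motors anchored on each outer microtubule doublet pull on the next doublet. Heavy chains of the outer and inner dynein arms supply the force, intermediate chains hold the outer arm together, and radial spokes and the central pair coordinate when the arms fire. In brain, the cells known for tufts of such cilia are the ependymal cells that line the ventricles, and choroid plexus epithelium carries shorter ones. Neurons and astrocytes carry a primary cilium that does not beat.

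The 2 KO libraries held 10845009 and 11439733 UMIs and the 2 WT libraries 13107920 and 29317266 UMIs, in 17802 barcodes, of which 17110 remained after 692 putative doublets were removed. The libraries shared 37 barcode sequences. Median mitochondrial share was between 0.139% and 0.167% in KO libraries and was 0.722% and 0.152% in WT libraries. Clustering without the 59 genes gave 27 clusters, and 5198 nuclei were in clusters that no marker list named. Nuclei with cerebellar granule neuron markers numbered 2976, the most of any named class. Class names below are short for clusters with that class's markers, and the GABAergic class of 583 nuclei was led by the striatal genes Rarb and Drd2. Ago2 itself was at 108.0 and 101.4 CPM, UMIs per 1000000 UMIs of the class in a library, in glutamatergic neurons of the libraries labelled KO, against 72.9 and 79.4 in those labelled WT, so it was not lower in KO. Which exons are lost is not in the labels, and a 3′ tag outside them still counts, so this level does not check the genotype. KO and WT below name libraries by their labels.

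Nuclei were called ependymal-marker nuclei when they held UMIs of at least 4 of 23 ependymal markers, none of them an axoneme gene of the rule, and of more ependymal than choroid plexus markers. There were 27 and 57 such nuclei in KO libraries and 31 and 35 in WT libraries, 150 in all. Of these, 120 fell in cluster 18, which was formed without the axoneme genes and held 121 nuclei, while 11 fell in the choroid plexus cluster and 19 elsewhere. The median ependymal-marker nucleus held 87.5 axoneme-gene UMIs of 4826.5 UMIs, and the median other nucleus held 1 of 2531. Nuclei with exactly 4 markers were less rich in these genes than the rest, with a median of 11 axoneme-gene UMIs in 12 nuclei just inside the threshold and 7 in 80 nuclei just outside it. Ependymal-marker nuclei made up 0.791% (exact binomial 95% interval 0.522 to 1.15) and 1.69% (1.28 to 2.18) of nuclei in KO libraries, and 0.788% (0.536 to 1.12) and 0.548% (0.382 to 0.761) in WT libraries. The KO ratio was 0.91 ± 0.45 on the log2 scale (SE, n = 2 libraries a group) and did not pass edgeR's test over the 15 classes (adjusted p = 0.408). Intervals cover counting error only.

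The 59 genes together were far more abundant in ependymal-marker nuclei than elsewhere. Their summed level was 18998 and 19775 CPM in ependymal-marker nuclei of KO libraries, and 15474 and 19058 in those of WT libraries. Choroid plexus nuclei followed at 3870 and 3923 CPM in KO and 3871 and 3915 in WT libraries. In the other classes the summed level lay between 298.6 CPM, in endothelial nuclei of a KO library, and 833.3, in cerebellar interneurons of a KO library. Ependymal-marker nuclei held 1.48% of all UMIs and 31.3% of the axoneme-gene UMIs, 16596 of 53020. For 15 of the 59 genes they held over 50% of the gene's UMIs.

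**Figure D1:**
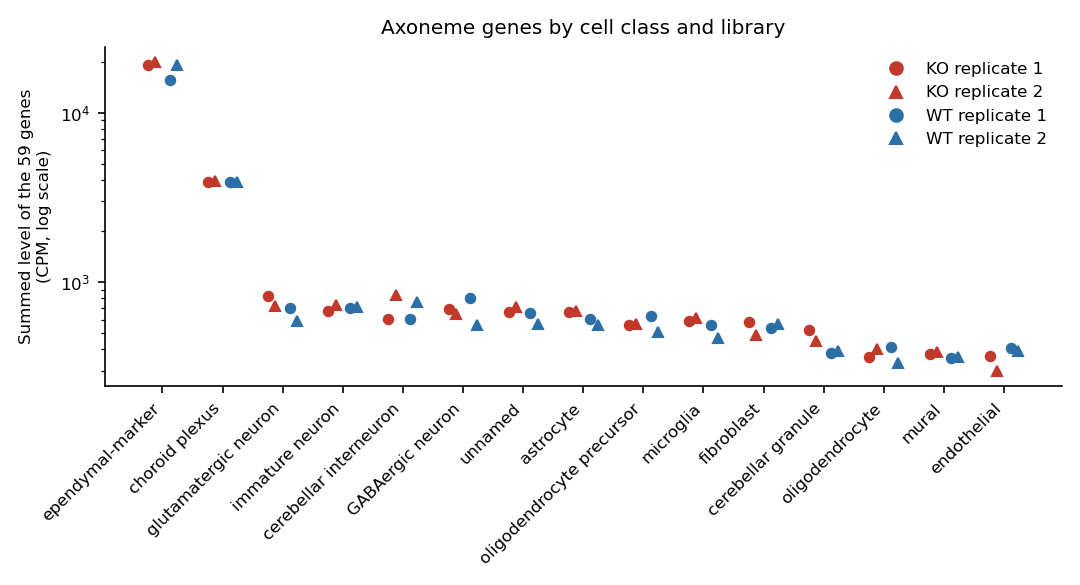
Summed level of the 59 axoneme genes, in CPM on a log scale, in each cell class and each of the 4 libraries (KO left, WT right within a class). Ependymal-marker nuclei lie between 15474 and 19775, choroid plexus nuclei between 3870 and 3923, and every other class below 834.

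Between ependymal-marker nuclei and all other nuclei of the same libraries, 55 of the 59 genes had enough counts to test, and 52 were higher in ependymal-marker nuclei (edgeR's quasi-likelihood test with Benjamini-Hochberg adjustment). None was lower. Of all 15243 genes tested, 13.9% were called higher, and the median log2 change was 4.93 for the axoneme genes and -0.20 for all genes. The 4 genes without a test were Cfap126, Rsph6a, Cfap97d1 and Dnah2os, an antisense RNA inside Dnah2, and each of the 59 had at least 1 UMI.

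**Figure D2:**
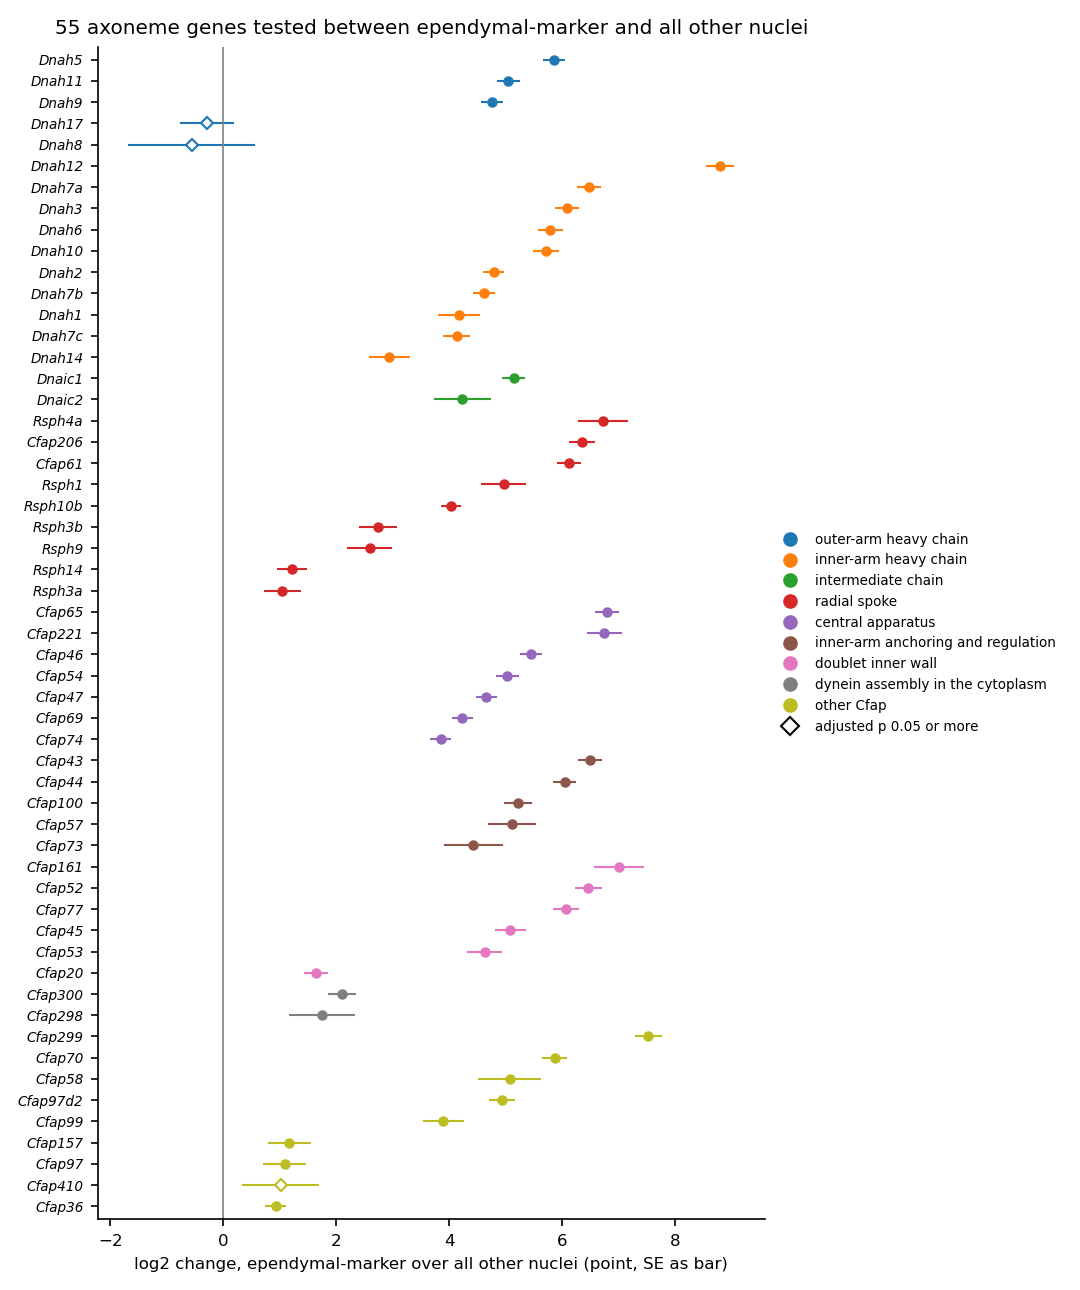
Log2 change of each of the 55 tested genes between ependymal-marker nuclei and all other nuclei, by role (points, with the SE as a bar; 4 libraries, open diamonds where the adjusted p was 0.05 or more). Dnah12 has the largest change, 8.79, and Dnah17 and Dnah8 have negative ones.

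The outer-arm heavy chains split by the tissue their names are known from. Dnah5, the gamma heavy chain of airway and ependymal outer arms, lies on chromosome 15 (28203752 to 28472052, plus strand, GRCm38). It was at 494.8 and 464.9 CPM in KO and 514.7 and 575.2 in WT ependymal-marker nuclei, a log2 change of 5.86 ± 0.20 over other nuclei (SE, edgeR adjusted p = 5.01e-35). Its partners Dnah9 and Dnah11, both beta heavy chains, were 4.76 ± 0.20 and 5.05 ± 0.20 higher on the log2 scale. Dnah8 and Dnah17, the gamma and beta chains known from sperm flagella, were not called. Dnah8 had 2 UMIs in all ependymal-marker nuclei, and Dnah17 had 3 and 2 UMIs in KO and 7 and 1 in WT libraries, with log2 changes of -0.55 ± 1.13 (adjusted p = 0.770) and -0.28 ± 0.47 (adjusted p = 0.713). Per kilobase of annotated exon, the ependymal-marker level was 53.6 CPM for Dnah11, 50.7 for Dnah9 and 32.7 for Dnah5, against 0.890 for Dnah17 and 0.0824 for Dnah8. Exon length is an imperfect scale if intronic reads were counted, which is not given in the sources used here.

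All 10 inner-arm heavy chains were higher in ependymal-marker nuclei, with log2 changes from 2.94 for Dnah14 to 8.79 for Dnah12. Dnah12 (chromosome 14, 26693274 to 26891703, plus strand) stood at 1814 and 1969 CPM in KO and 1515 and 1826 in WT ependymal-marker nuclei. In every named class outside ependyma and choroid plexus its pooled level lay between 0.343 and 3.86 CPM, and ependymal-marker nuclei held 88.3% of its UMIs. Dnah6, a single-headed inner-arm chain, was at 800.2 and 1057 CPM in KO and 780.4 and 1015 in WT ependymal-marker nuclei (log2 change 5.79 ± 0.21). Dnah3 and Dnah10 changed by 6.08 ± 0.21 and 5.72 ± 0.23, and Dnah2 and Dnah1 by 4.79 ± 0.19 and 4.18 ± 0.37. The 3 mouse copies of Dnah7 all lie on chromosome 1 and may share reads, so their separate levels are uncertain. Dnah7a changed by 6.47 ± 0.21, Dnah7b by 4.62 ± 0.20 and Dnah7c by 4.13 ± 0.24. The intermediate chains Dnaic1 and Dnaic2 of the outer arm were 5.14 ± 0.21 and 4.23 ± 0.51 higher.

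Of 10 radial spoke genes, 9 were tested and all 9 were higher. Rsph4a, a spoke-head gene needed in motile cilia, changed by 6.72 ± 0.43 with 68 UMIs in ependymal-marker nuclei, while Rsph6a, its sperm counterpart, had 1 UMI there. Cfap61 and Cfap206, at the base of the spokes, changed by 6.13 ± 0.21 and 6.35 ± 0.23. Rsph1, Rsph9 and Rsph10b changed by 4.96 ± 0.40, 2.60 ± 0.40 and 4.03 ± 0.18. The small changes were those of Rsph14 (1.21 ± 0.26) and Rsph3a (1.05 ± 0.32), which other cells also expressed. Rsph3a and Rsph3b are near-identical copies and their counts may be split between them.

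All 7 genes of the central apparatus were higher, from 3.85 ± 0.18 for Cfap74 to 6.79 ± 0.21 for Cfap65. Cfap54, a scaffold of the central-pair projections, was at 1326 and 1122 CPM in KO and 1105 and 1190 in WT ependymal-marker nuclei. Cfap69 was at 617.0 and 544.9 in KO and 489.4 and 727.7 in WT, and the groups overlapped for both genes. Cfap43 and Cfap44, which tether an inner arm, changed by 6.49 ± 0.21 and 6.04 ± 0.21, and the other 3 genes known to anchor or regulate inner arms, Cfap57, Cfap73 and Cfap100, by 4.43 to 5.22. Among the proteins inside the doublet wall, Cfap161 changed by 7.01 ± 0.44, Cfap52 by 6.46 ± 0.24 and Cfap77 by 6.07 ± 0.23, while Cfap20, which is also part of non-motile cilia, changed by 1.64 ± 0.20. Cfap298 and Cfap300, which act in the cytoplasm where dynein arms are put together, changed by 1.75 ± 0.58 and 2.10 ± 0.25.

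Cfap299 was the most abundant of the 59 genes, at 2248 and 2517 CPM in KO and 1747 and 2383 in WT ependymal-marker nuclei (log2 change 7.53 ± 0.24). It lies on chromosome 5 (98329304 to 98802047, plus strand), overlaps Gm11111 on its own strand and has the antisense gene 1700010H22Rik, and whether counting used strand is not given in the sources used here. Its level per kilobase of exon was 1540 CPM, against 149 for Dnah12. Per kilobase of gene span the order was the reverse, 4.72 CPM against 9.0, so the ranking depended on the length used. Cfap genes with small changes were Cfap36 (0.93 ± 0.18), Cfap97 (1.09 ± 0.38) and Cfap157 (1.17 ± 0.38), and Cfap410 was not called (1.02 ± 0.68, adjusted p = 0.279). Over all nuclei outside the ependymal-marker group, some of which also held ependymal markers, Cfap36 was the most abundant of the 59 genes at 76.6 CPM. It was followed there by Cfap20 at 38.5, Cfap54 at 32.9, Cfap69 at 29.4, Dnah9 at 26.7, Rsph14 at 25.5, Rsph10b at 22.2 and Dnah11 at 22.1. Rsph10b overlaps Pms2 on its own strand, so its counts are uncertain.

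Other genes of motile cilia, outside the symbol rule, were higher in the same nuclei. The counts were 11 of 12 tested genes of dynein assembly and docking, with the docking gene Armc4 at 7.05 ± 0.21, and 10 of 11 of the nexin-dynein regulatory complex and its ruler. They were 5 of 5 of the central pair, 4 of 5 light chains and 3 of 3 tested tektins. Hydin, Spag17 and Dynlrb2 in these lists, and the transcription factor Foxj1, also served to define the nuclei and say nothing about them. Intraflagellar transport genes, which build every cilium, were higher in 13 of 14 cases with a smaller median log2 change of 1.57. Of the transcription factors known to switch on this programme, Rfx2 changed by 4.71 ± 0.21, Rfx3 by 1.90 ± 0.18, Myb by 4.26 ± 0.45 and Trp73 by 2.77 ± 0.32, while Rfx1 was not called (-0.22 ± 0.47). Gmnc, which starts multiciliation, was at 6.11 and 494.0 CPM in KO and 109.7 and 143.8 in WT ependymal-marker nuclei. It was higher in choroid plexus nuclei, at 1380 and 2826 CPM in KO and 2355 and 2217 in WT. In the ependymal-marker nuclei, summed choroid plexus markers were at 152.7 and 1653 in KO and 759.3 and 701.5 in WT. They were higher in KO replicate 2, as Gmnc was, and their part in the Gmnc level was not tested.

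Rfx2 and Rfx3 encode factors that bind the X-box, a motif of ciliary promoters, which is why the window around each start was searched. The RefSeq promoter table (GRCm38.p6) gave 250 bases before and 50 after the start for 47 of the 59 genes. The X-box half-site GTTGCTA, read on either strand, was in 18 of these 47 windows (38.3%), against 4.28% of 27025 promoters of all genes. It was in 15 of the 32 matched genes that were at least 8-fold higher in ependymal-marker nuclei and in 3 of the 15 others. Those others include Cfap126, Rsph6a and Cfap97d1, which had no test and so no fold value. The related GTTGCCA was in 21.3% of the 47 and 5.02% of all, GTTGCC in 34.0% and 14.1%, GTTGCCATG in 6.38% and 0.877%, the gapped X-box half-site in 12.8% and 2.59%, and the full X-box palindrome in 2.13% and 0.529%. GTTGCC lies within GTTGCCA, GTTGCCATG and the gapped half-site. The forkhead motif TGTTTAC was in 6.38% and 4.05%, its looser form TGTTTNC, which holds it, in 29.8% and 22.8%, and CCAAT in 36.2% and 41.1%. Upstream of the RefSeq start, 13 genes held GTTGCTA with room for 8 bases on each side, 11 of them within 100 bases of it and with a median position of -36. A match describes the letters of the window and not binding. The lines below show the half-site in capitals, 5′ to 3′ on the strand where it reads GTTGCTA, for genes of several roles.
Dnah7b: gtcgattcGTTGCTAagcaacaa
Dnah5: tttctcttGTTGCTAaacatgat
Dnaic2: cggccaggGTTGCTAggcaactg
Cfap44: ggagggacGTTGCTAtggcaacc
Cfap45: gttcttggGTTGCTAtggtaacg
Cfap69: gcccgggcGTTGCTAggggcggg
Rsph14: gcgacctgGTTGCTAggagactg
The site of Dnah7b is chr1:46066827-46066849 on the minus strand. Those of Dnah7a (chr1:53706821-53706843, plus strand) and Dnah7c (chr1:46425447-46425469, minus strand) have the same 23 letters as Dnah7b. The others are chr15:28203650-28203672 (Dnah5), chr11:114727378-114727400 (Dnaic2), chr16:44394764-44394786 (Cfap44), chr1:172521103-172521125 (Cfap45), chr5:5664237-5664259 (Cfap69) and chr10:75032580-75032602 (Rsph14), all on the plus strand. In GENCODE vM21, Dnah7b starts at 46066315 and Cfap45 at 172520801, so by that annotation the sites of both lie inside the gene.

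The choroid plexus class held part of the axoneme programme. It had 54 nuclei without the ependymal gate, 9 of them in a WT library, so no test was made and the 4 libraries were pooled with exact Poisson 95% intervals. Of the 44 genes with at least 50 UMIs in ependymal-marker nuclei, 11 stood in choroid plexus below 5% of their ependymal-marker level, 18 between 5% and 25%, 8 between 25% and 50%, and 7 at 50% or more. Dnah5, Dnah7a and Cfap161 had 0 UMIs of 404763 there, where 3 counts would be 7.41 CPM and the exact interval of a count of 0 ends at 9.11 CPM. In ependymal-marker nuclei Dnah5 had 463 UMIs, Dnah7a 286 and Cfap161 66. Dnah12 was at 9.88 CPM (2.69 to 25.3) in choroid plexus nuclei and 1786 (1700 to 1875) in ependymal-marker nuclei. Dnah10, Dnah3 and Cfap46 were at 2.47, 7.41 and 7.41 CPM in choroid plexus nuclei, against 230.8, 377.7 and 422.9 in ependymal-marker nuclei.

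Other genes were well represented in the same choroid plexus nuclei. Dnah7b was at 350.8 CPM (295.5 to 413.5), against 484.8 (440.5 to 532.3) in ependymal-marker nuclei, and Cfap47 was at 249.5 and 389.8. Cfap54 reached 390.4 (331.9 to 456.2) against 1172 (1102 to 1244), Dnah6 259.4 against 927.6, and Dnah9 222.4 against 808.3. Cfap300 was at 84.0 (58.2 to 117.4) and 89.5 (71.0 to 111.2), whose intervals overlap. Among the outer-arm chains Dnah9 and Dnah11 were therefore at 27.5% and 22.0% of the ependymal-marker level, and Dnah5 was not detected. The 23 ependymal markers together were at 1480 and 1251 CPM in KO and 1096 and 1392 in WT choroid plexus nuclei, against 7300 and 7366 in KO and 5999 and 7076 in WT ependymal-marker nuclei. RNA from ependymal cells in these droplets was not tested as a source. The choroid plexus level as a share of the ependymal-marker level ran from 0% to 93.9% among the 44 genes.

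**Figure D3:**
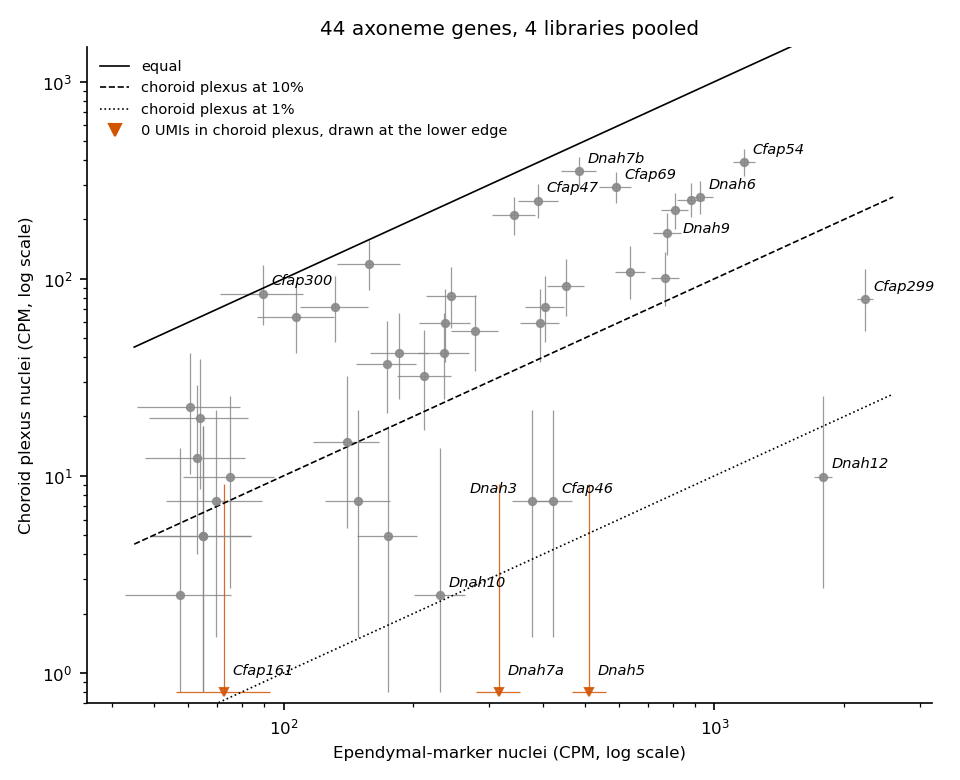
Level of 44 axoneme genes in choroid plexus nuclei against ependymal-marker nuclei, both in CPM on log axes, with the 4 libraries pooled and exact Poisson 95% intervals as bars. Dnah7b lies near the line of equal levels, Dnah12 near 1%, and Dnah5, Dnah7a and Cfap161 have 0 UMIs in choroid plexus.

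Outside these epithelia most of the 59 genes were scarce, and a few had a class of their own. Dnah11 (chromosome 12, 117877982 to 118199043, minus strand) was at 106.3 and 314.0 CPM in cerebellar interneurons of KO libraries, and 58.4 and 334.4 in those of WT libraries. It was at 81.7 and 105.7 in immature neurons of KO libraries and 115.5 and 128.7 in those of WT libraries. The median pooled level of the named classes other than cerebellar interneurons, ependyma and choroid plexus was 9.28. Replicate 2 was the higher library of both genotypes in cerebellar interneurons, and libraries of the same genotype differed more than the genotype means did. The gene Cdca7l overlaps Dnah11 on the other strand.

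Among the named classes other than ependyma and choroid plexus, Cfap74 was highest in microglia, at 109.3 and 89.6 CPM in KO and 81.6 and 76.5 in WT libraries. These values lay above its level in every library of every other such class, at most 48.8. The 5198 nuclei of unnamed clusters were left out of this ranking and of those below. Cfap97d2 was highest in astrocytes in the same sense, at 24.1 and 30.5 in KO and 36.8 and 37.7 in WT, with at most 17.0 elsewhere. Cfap58 was highest in cerebellar interneurons, at 4.62 and 24.2 in KO and 24.03 and 23.9 in WT, with at most 2.62 in a library of another such class. Those levels rest on 25 UMIs, 1 and 6 in KO and 7 and 11 in WT. Cfap65 was highest in glutamatergic neurons, at 8.36 and 5.48 in KO and 6.46 and 5.59 in WT, just above the 5.16 reached elsewhere. These 4 genes were the ones whose libraries in the leading class all lay above every library of the other such classes. Dnah7b in astrocytes was at 70.9 and 56.9 CPM in KO and 52.4 and 53.8 in WT, and fibroblasts reached 63.6, so the libraries of those classes overlapped. Dnah10 was at 13.3 and 44.9 CPM in oligodendrocytes of KO libraries and 24.3 and 32.4 in those of WT libraries. By pooled level Dnah9 and Rsph14 were highest in glutamatergic neurons and Dnah6 and Rsph3a in GABAergic neurons, but single libraries of other classes overlapped for all 4 genes. The lowest library in the leading class and the highest elsewhere were 37.2 and 47.8 CPM for Dnah9, 34.0 and 49.1 for Rsph14, 39.8 and 45.3 for Dnah6, and 12.3 and 34.0 for Rsph3a. Rsph14 overlaps Gnaz, a G protein gene, on the opposite strand, so its neuronal counts are uncertain. The pooled level of Dnah12, at most 3.86 CPM in these named classes, was below each of the levels named here, although Dnah12 was the second most abundant of the 59 genes in ependymal-marker nuclei.

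In ependymal-marker nuclei no axoneme gene was called different between KO and WT. Of 45 genes tested, edgeR called 0, DESeq2 called 0 and none had an unadjusted p under 0.05, where 0% of all 4678 genes were called and 4.53% had such a p. The log2 changes of KO over WT had a median of 0.09 (0.01 over all genes) and 31 of 45 were positive. Counts were simulated for this comparison with a spread between libraries that was assumed, equal for every gene, and not estimated from these libraries. In them the edgeR test recovered 0.5% of genes changed by 1 on the log2 scale. It recovered 81% of genes changed by 2, so the 0 calls say little about changes of the smaller size. The smallest unadjusted p was that of Cfap77, at 305.4 and 385.0 CPM in KO and 164.5 and 248.4 in WT libraries (log2 change 0.66 ± 0.30, edgeR adjusted p = 1.00). Cfap74 was at 427.6 and 399.6 in KO and 244.7 and 313.7 in WT (0.47 ± 0.26), and Cfap70 at 274.9 and 312.4 in KO and 147.7 and 244.0 in WT (0.50 ± 0.31). These 3 genes were named for having the smallest p, and each had an adjusted p of 1.00. Among the 13 heavy chains tested, the changes ran from -0.52 ± 0.54 for Dnah14 and -0.43 ± 0.33 for Dnah3 to 0.36 ± 0.29 for Dnah10 and 0.50 ± 0.36 for Dnah7c, with Dnah12 at 0.09 ± 0.26 and Dnah5 at -0.28 ± 0.25.

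The summed level in ependymal-marker nuclei overlapped between genotypes and was 0.17 higher in KO on the log2 scale (19386 ± 549 CPM in KO, 17266 ± 2535 in WT, SD, n = 2 each). Mitochondrial share moved with genotype in these nuclei, with medians of 4.90% and 7.30% in KO and 12.4% and 8.82% in WT. In cluster 18 alone the summed level was 23906 and 24210 in KO and 25074 and 25195 in WT, slightly lower in KO. Among nuclei under 5% mitochondrial UMIs it was 14574 and 13055 in KO and 2690 and 3765 in WT. That limit left 14 and 20 nuclei in KO, of which 10 and 12 were in cluster 18, and 10 and 10 in WT, of which 1 and 2 were. In the cluster 18 nuclei under that limit, the axoneme genes held 2.37% and 2.17% of UMIs in KO and 1.04% and 1.03% in WT. The direction of the difference thus varied with the nuclei kept, and its cause was not tested.

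**Figure D4:**
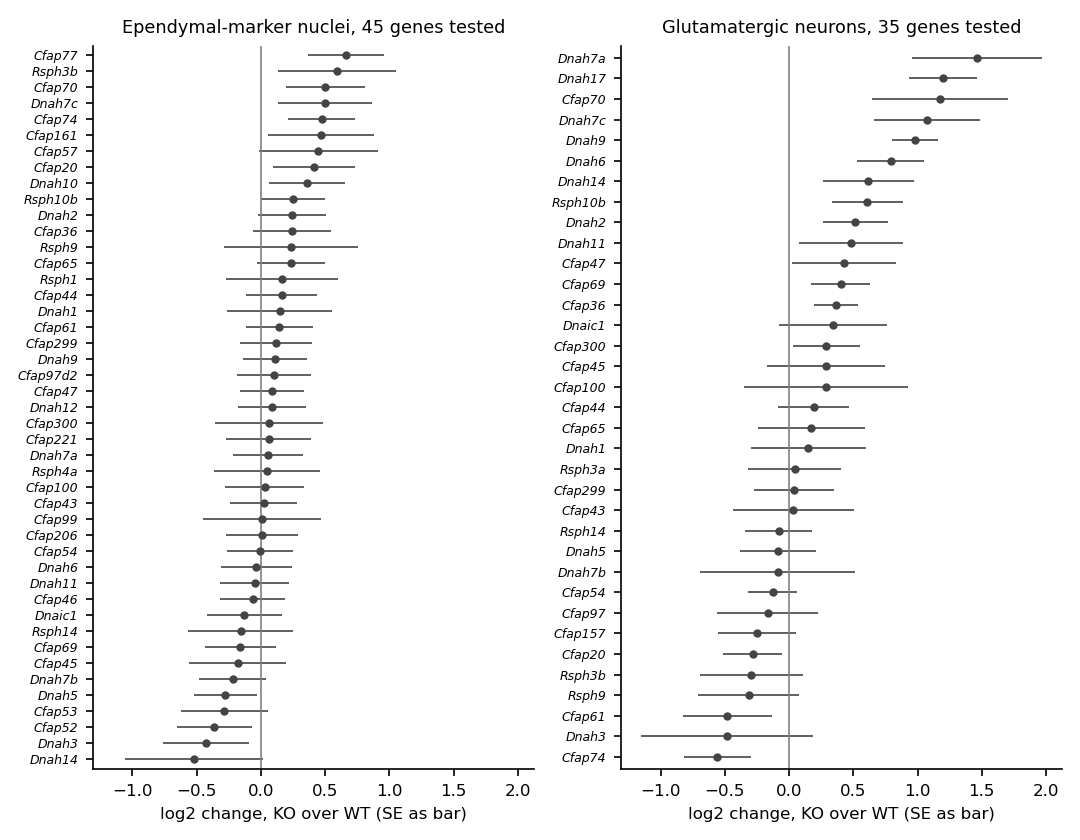
Log2 change of KO over WT for the axoneme genes tested in ependymal-marker nuclei (45) and in glutamatergic neurons (35), as points with the SE as a bar (n = 2 libraries a group). No gene passed the adjusted threshold in either class.

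Over all nuclei together, 51 of 56 genes had a positive change of KO over WT, with a median log2 change of 0.44 where that of all 17472 genes was -0.01. None was called by edgeR or by DESeq2 (0% of all genes were), and 17 of 56 had an unadjusted p under 0.05, against 5.87% of all genes. In such a sum, more ciliated nuclei and a higher level within nuclei cannot be told apart. Ependymal-marker nuclei were 0.791% and 1.69% of nuclei in KO and 0.788% and 0.548% in WT libraries. Without ependymal-marker nuclei the summed level was 694.0 and 656.9 CPM in KO and 597.4 and 553.4 in WT. Dnah9 had the smallest p over all nuclei, at 47.1 and 54.96 CPM in KO and 35.4 and 29.6 in WT (log2 change 0.64 ± 0.15, edgeR adjusted p = 0.767). Cfap70 and Cfap47 followed, with changes of 1.03 ± 0.25 and 0.65 ± 0.16 and the same adjusted p.

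In glutamatergic neurons, the class to which the Cre driver belongs, the gene that stood out was Dnah9 (chromosome 11, 65831282 to 66168551, minus strand). It was at 80.0 and 74.0 CPM in KO libraries and 38.8 and 37.2 in WT libraries. Its log2 change was 0.98 ± 0.18 (SE, n = 2 each). Its unadjusted p was 0.000117 and its adjusted p over 11039 genes 0.216 in edgeR, so it did not pass. The adjusted p ran from 0.00794 to 0.352 over the alternatives, with log2 changes from 0.95 to 1.00. It passed without the low-count filter (0.0133), with the replicate block (0.0238), and without KO replicate 1 (0.0292) or KO replicate 2 (0.00794), but not without WT replicate 1 (0.0640) or WT replicate 2 (0.162). Leaving out a library leaves 1 in its group, so those fits assume that it varies like the other group's libraries. In the cluster with Tbr1 the level was 60.1 and 46.3 in KO and 24.6 and 19.5 in WT. Gm12296 lies antisense to Dnah9.

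Of 35 axoneme genes tested in glutamatergic neurons none was called by edgeR or DESeq2, where 0.00906% of all genes were called by edgeR, and 7 had an unadjusted p under 0.05, against 5.25% of all genes. All 7 had positive changes, as did 23 of the 35. In counts simulated for this class with the same assumed spread, the edgeR test recovered 3.5% of genes changed by 1 on the log2 scale. It recovered 91% of those changed by 2. Dnah17 was at 32.8 and 26.3 CPM in KO and 14.3 and 11.3 in WT (1.20 ± 0.27, adjusted p = 0.510), and Dnah6 at 28.7 and 23.0 in KO and 14.3 and 14.4 in WT (0.79 ± 0.26, adjusted p = 0.882). Dnah9, Dnah17 and Dnah6 were named for having the smallest p in this class. Pgs1 and Gm11738 lie antisense to Dnah17, and Gm20560 antisense to Dnah6. The summed level in this class was 828.5 and 719.3 in KO and 698.6 and 591.2 in WT. The 23 ependymal markers were at 111.6 and 90.5 CPM in KO and 103.8 and 84.5 in WT glutamatergic neurons, with overlapping groups. Other marker lists did separate the groups in this class. Summed oligodendrocyte markers were at 223.8 and 203.4 CPM in KO and 418.5 and 347.8 in WT, with 7 of 10 markers lower in both KO libraries, and blood markers at 22.7 and 22.5 in KO and 37.8 and 36.0 in WT. Higher in KO were markers of choroid plexus (50.7 and 74.0 in KO, 42.9 and 43.2 in WT), cerebellar granule neurons (537.2 and 558.2 in KO, 500.7 and 441.9 in WT), oligodendrocyte precursors (297.8 and 270.9 in KO, 197.5 and 228.8 in WT) and glutamatergic neurons themselves (1963 and 1880 in KO, 1805 and 1795 in WT). Their part in the levels of Dnah9, Dnah17 and Dnah6 was not tested. Dnah12 was at 1.79 and 2.19 in KO and 3.69 and 2.06 in WT there.

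In GABAergic neurons Dnah9 had too few counts to test between genotypes. It was there at 10.3 and 9.75 CPM in KO and 36.2 and 16.1 in WT, from 5 and 6 UMIs in KO and 14 and 19 in WT. The difference of the genotype effect, glutamatergic minus GABAergic, was 2.14 ± 0.51 on the log2 scale and did not pass (edgeR adjusted p = 0.0734). Of 32 axoneme genes none was called for this difference by edgeR or DESeq2, where 0.119% of all genes were called by edgeR, and 3 had an unadjusted p under 0.05, against 6.22% of all genes. After Dnah9 these were Cfap54 (-1.01 ± 0.34) and Dnah17 (1.56 ± 0.65). Likewise none of 56 was called for the difference between ependymal-marker and other nuclei, where 0.012% of all genes were called by edgeR, and 1 had an unadjusted p under 0.05, against 3.67% of all genes. The smallest p values were those of Dnah7b (-0.71 ± 0.34), Dnah7a (-0.63 ± 0.39) and Cfap77 (0.60 ± 0.40), each with an adjusted p of 1.00.

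Dnah5 in oligodendrocyte precursors was the axoneme gene called between genotypes, 1 of 7 tested there, where 0.259% of all genes were called and 5.87% had an unadjusted p under 0.05. It was at 4.97 and 6.73 CPM in KO and 41.6 and 35.0 in WT libraries, and fell by 2.64 ± 0.57 on the log2 scale in KO (edgeR adjusted p = 0.0409). The main precursor cluster had 2 and 3 UMIs in KO, from 128 and 170 nuclei, and 19 and 33 in WT, from 159 and 269 nuclei. Its UMIs were spread over 15 and 23 nuclei in WT, with at most 5 in a nucleus. The call rests on few counts: it was lost in DESeq2 (adjusted p = 1.00), with the replicate block (edgeR adjusted p = 0.260) and when any library was left out (adjusted p from 0.0512 to 0.571), with log2 changes from -2.90 to -2.43. In glutamatergic neurons Dnah5 was at 14.8 and 17.5 CPM in KO and 19.8 and 14.9 in WT (-0.09 ± 0.29). Summed oligodendrocyte markers in the precursors were 783.4 and 726.3 in KO and 1334 and 1131 in WT. The 23 ependymal markers were at 32.3 and 44.8 in KO and 56.9 and 46.7 in WT precursors, and mural, microglia and blood markers were also lower in both KO libraries. Markers of cerebellar granule neurons, cerebellar interneurons and immature neurons were higher in both. The part of these markers in the Dnah5 level was not tested.

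**Figure D5:**
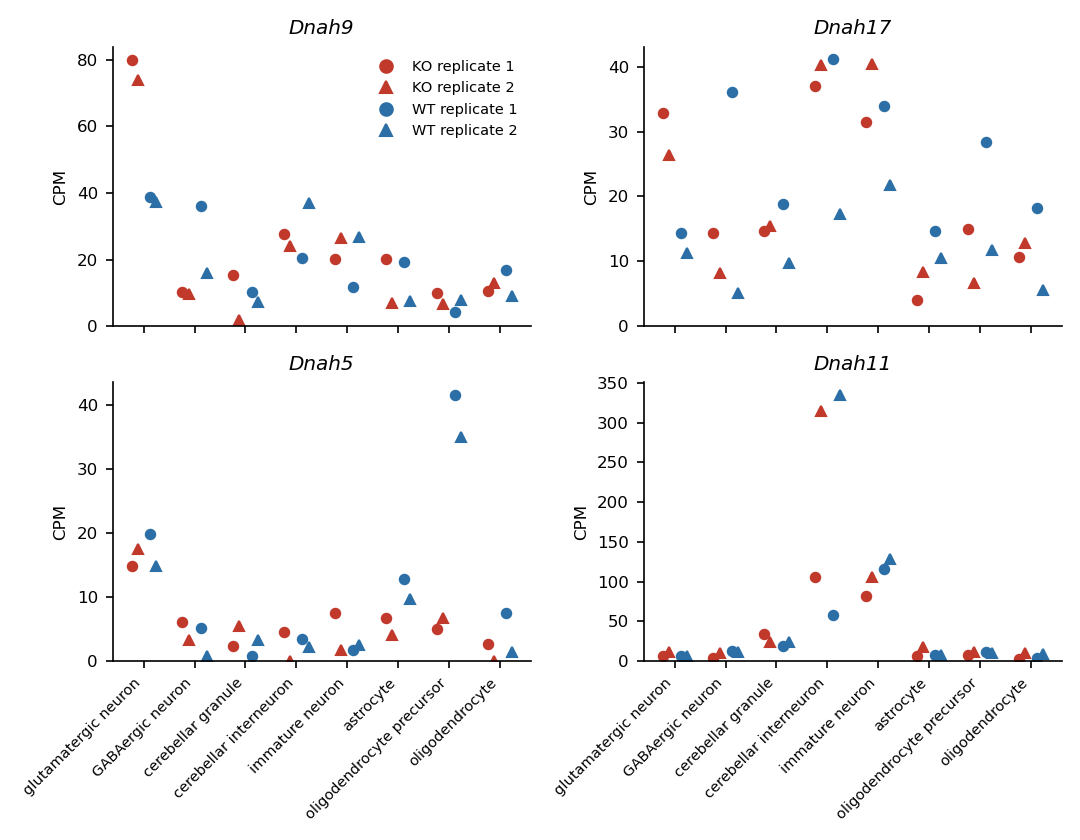
Level of Dnah9, Dnah17, Dnah5 and Dnah11 in 8 neuron and glia classes, in CPM for each of the 4 libraries (KO left, WT right). Dnah9 is higher in both KO libraries in glutamatergic neurons (80.0 and 74.0 against 38.8 and 37.2), and Dnah5 lower in both in oligodendrocyte precursors (4.97 and 6.73 against 41.6 and 35.0).

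In the other neuron and glia classes 0 axoneme genes were called by edgeR or DESeq2, which is read against the calls among all genes: 0.03% in GABAergic neurons, 0.0319% in astrocytes, 0.0107% in cerebellar granule neurons, 0.22% in endothelial nuclei, 0.086% in oligodendrocytes and 0% in the rest. Those with an unadjusted p under 0.05 numbered 2 of 17 tested in cerebellar granule neurons (6.21% of all genes), 1 of 11 in GABAergic neurons (5.54%), 1 of 18 in astrocytes (8.03%), 1 of 5 in endothelial nuclei (7.91%) and 2 of 43 in unnamed clusters (7.36%). They numbered 0 of 4 in cerebellar interneurons (5.28% of all genes), 0 of 16 in immature neurons (3.7%), 0 of 2 in microglia (5.09%), 0 of 3 in oligodendrocytes (5.59%), 0 of 5 in fibroblasts (5.67%) and 0 of 2 in mural nuclei (7.68%). Cfap299 in granule neurons was at 13.8 and 14.5 CPM in KO and 4.27 and 5.57 in WT (log2 change 1.45 ± 0.41, adjusted p = 0.518). Cfap44 in astrocytes was at 29.4 and 34.7 in KO and 16.6 and 14.7 in WT (1.02 ± 0.33, adjusted p = 0.485). Summed oligodendrocyte markers were lower in KO in both classes, at 363.7 and 369.7 CPM in KO and 778.1 and 702.9 in WT granule neurons, and at 519.1 and 1391 in KO and 6496 and 1823 in WT astrocytes. The 23 ependymal markers were higher in KO astrocytes, at 111.0 and 127.7 CPM against 103.0 and 87.3 in WT. Of these markers, 7 were higher and 3 lower in both KO libraries. In granule neurons they overlapped, at 51.3 and 63.6 in KO and 64.8 and 53.0 in WT. The part of these markers in the Cfap299 and Cfap44 levels was not tested.

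The other genes with the smallest p in each class had edgeR adjusted p-values from 0.509 to 1.00, and none changed by the test. In cerebellar granule neurons they were Rsph10b, with a log2 change of 0.79 ± 0.27, and Cfap36 (0.41 ± 0.19). In astrocytes Dnah2 was at 0.86 ± 0.39 and Cfap157 at 1.00 ± 0.49. In GABAergic neurons Cfap54 was at 0.81 ± 0.35, Rsph3a at -0.71 ± 0.43 and Rsph14 at -0.51 ± 0.38. Immature neurons gave -0.69 ± 0.34 for Cfap54, -0.44 ± 0.22 for Dnah11 and 0.50 ± 0.32 for Cfap69. Cfap54 had a positive change in GABAergic neurons and a negative one in immature neurons, and that difference was not tested. In endothelial nuclei Cfap97 was at -1.61 ± 0.67, Dnah3 at -0.80 ± 0.53 and Cfap20 at -0.23 ± 0.38. Cerebellar interneurons gave 0.56 ± 0.54 for Dnah7b, 0.46 ± 0.60 for Dnah17 and -0.07 ± 0.36 for Cfap36. In the unnamed clusters Dnah9 was at 0.59 ± 0.19, Dnah2 at 0.64 ± 0.25 and Dnah17 at 0.59 ± 0.29. In fibroblasts Dnah6 was at 0.61 ± 0.46, Dnah7b at -0.44 ± 0.45 and Cfap97 at 0.29 ± 0.62, and in oligodendrocyte precursors Cfap47 was at 0.52 ± 0.44 and Cfap54 at 0.36 ± 0.44. Microglia gave 0.29 ± 0.37 for Cfap74 and -0.31 ± 0.54 for Cfap36. In mural nuclei Cfap20 and Cfap36 were at 0.34 ± 0.34 and 0.22 ± 0.48, and in oligodendrocytes Cfap36, Cfap20 and Dnah10 were at 0.25 ± 0.27, 0.08 ± 0.49 and 0.02 ± 0.47.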

How the data were processed

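Nuclei of 4 mouse brain hemisphere libraries were profiled with 10x 3′ chemistry, per the labels' protocols. Cell Ranger 4.0.0 and Seurat 3.2.3 are listed, with the build GRCm38, in the submitters' processing notes. The annotation release, the counting of introns and the use of strand are not given in the sources used here. The deposited files hold unnormalized UMI counts per feature and barcode, already limited to barcodes with 500 or more UMIs, as tested on the files.

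Putative doublets were the barcodes with the highest Scrublet scores, 0.8% per 1000 barcodes of a library, because the automatic threshold marked 0 to 3 barcodes a library. The remaining barcodes were clustered in scanpy 1.11.5 (2000 variable genes, 30 principal components, 15 neighbours, Leiden resolution 1.0) without the axoneme genes, Ago2, Cre, sex-linked and mitochondrial genes. A cluster took a class name if 3 of its markers were in 10% of its barcodes at 2-fold, with a mean log2 fold of 0.5. A shallow cluster also needed 2 of its own markers in its top 10, a rule added after seeing the data. No mitochondrial limit was set. Counts were summed per library and class and tested in edgeR 4.0.16 (quasi-likelihood, TMM, default low-count filter, R 4.3.3), with p-values adjusted over all genes tested and a threshold of 0.05. Classes with under 10 barcodes in a library were not tested. The scripts were tested on simulated data. Alternatives were DESeq2 1.42.0, its size factors, no filter, replicate block, a 5% mitochondrial limit, doublets kept, other ependymal definitions and each library left out. Replicates differed by more than sampling noise (chi-square per gene 9.71 in KO and 33.6 in WT).

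The genes and lists were chosen with earlier results of these data known. Named with values were the 12 most abundant axoneme genes in ependymal-marker nuclei, the 8 most abundant elsewhere, the 3 with the smallest p in each genotype comparison, those called, and those not called higher in ependymal-marker nuclei; other names in the text were chosen after their values were seen. Gene positions are those of GENCODE vM21 (GRCm38), in which all 59 symbols were found.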

Additional observations from a re-analysis of the deposited data

How the results depend on the processing

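The count of axoneme genes higher in ependymal-marker nuclei stayed within 1.5 times of 52 under every alternative, and was 37 under the 5% mitochondrial limit, 50 with at least 3 markers and 49 to 52 with a library left out. Of 18 counts of called axoneme genes, 11 kept within 1.5 times under every alternative run. In glutamatergic neurons the count of 0 became 2 without the low-count filter, and 0 to 5 with a library left out (5 without KO replicate 2, among them Dnah9 and Dnah17). In oligodendrocyte precursors the 1 call became 0 in DESeq2, under the 5% limit, with doublets kept, and with any library left out. The differences of the genotype effect gave 3 calls in place of 0 between ependymal-marker and other nuclei under the 5% limit (Dnah12, Cfap299 and Cfap61, where few WT nuclei of cluster 18 remained), and, between glutamatergic and GABAergic neurons, 1 without the filter and 0 to 2 with a library left out. With a library left out the count was 0 to 1 in GABAergic neurons (Rsph3a, without KO replicate 2) and 0 to 1 in cerebellar interneurons (Dnah11, without WT replicate 2). A fit without a library has 1 library in that group, assumed to vary like the other group's.

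Replicate numbers are not said to pair libraries, and same-numbered libraries deviated in opposite directions (correlation -0.24 over 13522 genes). The replicate block gave 1 call in glutamatergic neurons (Dnah9, adjusted p = 0.0238) and 0 in oligodendrocyte precursors, and left the other counts of calls as they were. The crossed pairing, added after seeing the data, gave 1 call in glutamatergic neurons, 0 in oligodendrocyte precursors and 2 over all nuclei. The share of ependymal-marker nuclei passed under no alternative, with a log2 ratio of 0.85 under the replicate block and 0.27 to 1.36 with a library left out. The log2 ratio of KO over WT for the summed level in ependymal-marker nuclei was 0.17, became 2.10 under the 5% limit, 0.53 with at least 3 markers, -0.063 in cluster 18 (added after seeing the data), and 0.025 to 0.33 with a library left out; in choroid plexus it was 0.001 and became 0.076 under the 5% limit. Causes were not tested. Depth limits the genes with few UMIs in a class, and 14 of the 59 had too few to test between genotypes in ependymal-marker nuclei.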
